A study of Homo sapiens with 6 samples.

Results

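The DNAJ genes, also called HSP40 genes, encode the J-domain co-chaperones of HSP70. The family was taken as all protein-coding genes of GENCODE 29 whose symbol begins with DNAJA, DNAJB or DNAJC, and 45 of the 60658 genes listed in each library met this rule. There were 4 members of class A, 12 of class B and 29 of class C. Each member was also placed by the known location of its protein, with 4 members in the lumen of the endoplasmic reticulum (ER), 6 in the ER membrane, 14 in the cytosol, 7 in mitochondria, 4 in the nucleus and 5 on vesicles. The remaining 5 members, DNAJB13, DNAJC22, DNAJC25, DNAJC25-GNG10 and DNAJC27, were given no location.

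Gene expression was measured by paired-end RNA-seq (reads of 150 bp) in C4-2B MDVR and CWR22Rv1, a pair of established castration-resistant prostate cancer cell lines that resist the androgen receptor antagonist enzalutamide. Cells of each line were given DMSO as vehicle, 10 µM apoptozole (APO) or 10 µM VER155008 (VER) for 48 h, and both compounds inhibit HSP70 by acting on its ATPase domain. The 6 libraries are therefore DMSO, APO and VER in C4-2B MDVR, kept with 20 µM enzalutamide, and DMSO, APO and VER in CWR22Rv1, kept without it. With 1 library per condition, no difference below has a replicate check, no p-value was computed, and the action of an inhibitor cannot be told apart from a difference between single cultures or libraries. The labels name C4-2B MDVR in the titles but give LNCaP-C4-2B as the source and a parental line as the cell type, and the titles were followed. The study's methods name a different library kit from the stranded poly(A) kit of the labels.

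J-domain proteins bring unfolded clients to HSP70 and make it hydrolyse ATP, which locks the client onto HSP70. Class A and class B members bind clients themselves and differ in a zinc-finger region that only class A has, while class C members share little beyond the J domain and recruit HSP70 to particular places and tasks. Those of the ER lumen work with the HSP70 protein of that compartment, BiP, encoded by HSPA5, and are known as targets of the unfolded protein response. DNAJA1 and DNAJB1 of the cytosol are known as heat shock genes.

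The promoters of the members were read for the motifs through which these responses are known to act. RefSeq windows of 300 bases on GRCh38.p14, from 250 bases before a gene's start to 50 after it, were found for 41 of the 45 members, with 53 windows in all. DNAJC1, DNAJC22, DNAJC24 and DNAJC5B had no entry. Distances are counted from the RefSeq start. For DNAJA1, DNAJB9 and DNAJC10 this start lies inside the GENCODE coordinates given for the gene below. Both strands were searched and any overlap was allowed. The heat shock element, searched as GAANNTTCNNGAA or TTCNNGAANNTTC, was found in the windows of DNAJA1 and DNAJB6 and in 0.49% of all 35116 windows. The stretches of 30 bases below show it in capitals, with its first base 4 bases into the transcript at DNAJA1, counting the start as 1, and 131 bases before the start at DNAJB6. They lie at chr9:33025267-33025296 and chr7:157336864-157336893 on the plus strand.
DNAJA1: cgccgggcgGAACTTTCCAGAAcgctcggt
DNAJB6: aagagccgaGAACCTTCGCGAAggtggggc

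The unfolded protein response element, searched as TGACGTGG or TGACGTGA, was in 1.18% of all windows and in 1 member, DNAJC10, where it lay on the minus strand with its leftmost base 125 bases before the start, at chr2:182716121-182716150. The ER stress elements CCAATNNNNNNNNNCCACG (ERSE) and ATTGG, any base and CCACG (ERSE-II) were in 0.0769% and 0.0541% of all windows and in 0 member windows. Their CCACG part, a motif added after the data were seen, was in 38.1% of all windows and in 30 of the 53 member windows, from 25 members. The median GC content was 65.0% in the member windows and 58.7% in all windows, and the part of this difference in the share with CCACG was not tested. Among the members of the ER lumen it was in the windows of DNAJB9, DNAJC3 and DNAJC10 and not in that of DNAJB11. It stands in capitals in the DNAJB9 and DNAJC3 stretches (chr7:108569787-108569816, chr7:108569814-108569843 with the motif on the minus strand, chr13:95676946-95676975 and chr13:95677005-95677034), and the whole response element, which includes a CCACG, is in capitals for DNAJC10.
DNAJB9, 74 bases before the start: caacaacagttttCCACGtgcgcgtagggc
DNAJB9, 47 bases before the start: ggcgccgggatcaCGTGGggaggcagaagc
DNAJC3, 180 bases before the start: tcgtctcgtgcttCCACGttatcctatcag
DNAJC3, 121 bases before the start: ctatcagcgcgaaCCACGaccccggcgagc
DNAJC10, 125 bases before the start: cgcgcacaccgCCACGTCAacctaaaccta
The amino acid response element TGATGNAA, known from targets of ATF4, was in 3.62% of all windows and in 1 member, DNAJA4. It lay 248 bases before the start, at chr15:78265968-78265997.
DNAJA4: agTGATGGAAtatttatatttagccacatg
A match describes the letters of the window and does not show that a factor binds there.

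Levels are given in FPKM, the fragments of a gene scaled to the gene's length and to a size of its library. The values are those deposited by the authors, normalized between libraries with the tool Cuffnorm. A difference is that of log2(FPKM + 0.1) between libraries, a fold is a ratio of FPKM + 0.1, and a gene counted as higher or lower when it was past 1.2-fold (0.263 on the log2 scale), the threshold of the study. The 7 prostate luminal markers were above 1 FPKM in every library, while their summed level ran from 320 to 1112 FPKM in C4-2B MDVR and from 428 to 683 in CWR22Rv1. It was lowest with APO in each line, and the part of this shift in the results below was not tested. In bulk RNA, fewer cells of a kind and less RNA per cell cannot be told apart. The 4 leukocyte markers summed to at most 3.78 FPKM and the 4 fibroblast markers to at most 31.6, of which LUM held up to 26.2 in CWR22Rv1. Mitochondrially encoded genes held between 14.8% and 16.4% of FPKM in C4-2B MDVR, and 25.7%, 10.4% and 25.7% with DMSO, APO and VER in CWR22Rv1. On a depth scale read from the lowest values, where C4-2B MDVR with DMSO is 1, the other libraries lay between 1.15 and 1.62. This scale is rough, since the most frequent ratio of such values, from which it is read, held only 5.52% to 13.0% of the ratios.

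Of the 45 members, 39 reached a mean of 1 FPKM over the libraries. DNAJB7 and DNAJB8 were listed at 0 in all 6 libraries, and DNAJC15 and DNAJC5B were also below 0.1 FPKM in each. DNAJB13 reached 0.746 FPKM and DNAJC5G 0.101. The summed FPKM of the family was 1149, 1314 and 1234 with DMSO, APO and VER in C4-2B MDVR and 942, 1086 and 1040 in CWR22Rv1. As a share of all FPKM outside mitochondrial genes this was 0.202%, 0.206% and 0.219% in the first line and 0.181%, 0.187% and 0.191% in the second. The share of the whole family thus lay in a narrow range, and the libraries differed in which members made it up.

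Under DMSO the most abundant member in both lines was DNAJA1, at 159 FPKM in C4-2B MDVR and 116 in CWR22Rv1. DNAJB11 was the second in both, at 108 and 78.2 FPKM. With APO and with VER, DNAJB11 was the first in C4-2B MDVR, at 177 and 147 FPKM, and DNAJC10 the second, at 106 and 108. In CWR22Rv1 DNAJA3, the main class A protein of mitochondria, came first with APO, at 75.4 FPKM, and DNAJA1 again with VER, at 99.5. How far neighbours in these orders differ beyond the spread of replicates was not measured.

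The ER lumen members took a larger part of the family in each inhibitor-treated library, and the class A members a smaller one. Members of the ER lumen held 15.4%, 29.1% and 27.8% of the family's FPKM with DMSO, APO and VER in C4-2B MDVR and 16.6%, 20.3% and 23.1% in CWR22Rv1. Class A members held 23.7%, 15.6% and 16.0% in the first line and 21.9%, 17.8% and 18.5% in the second. This class did not move as one. Only DNAJA1, its most abundant member under DMSO, was below its DMSO level in all 4 treated libraries. DNAJA3 was 0.38 and 0.68 higher on the log2 scale with APO in C4-2B MDVR and CWR22Rv1. The summed FPKM of the ER lumen members divided by that of the cytosolic members was 0.385, 1.09 and 0.954 in C4-2B MDVR and 0.486, 0.665 and 0.762 in CWR22Rv1. In C4-2B MDVR both sums differed, since the ER lumen sum was 176, 383 and 343 FPKM and the cytosolic sum 458, 350 and 359. In CWR22Rv1 the ER lumen sum was 156, 221 and 241 FPKM, and the cytosolic sum lay between 316 and 332 in all libraries.

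**Figure D1:**
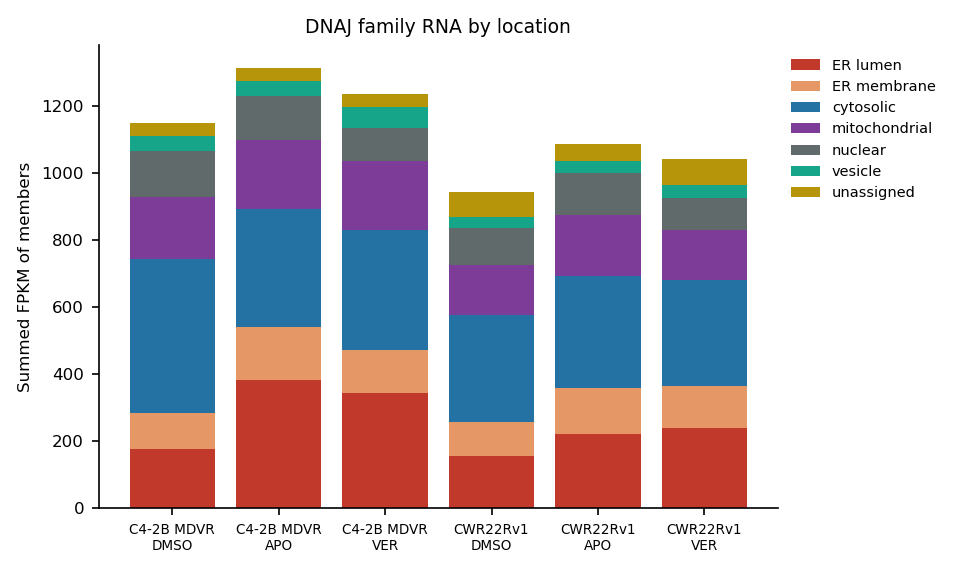
Summed FPKM of the DNAJ members in each of the 6 libraries (bars from 0), divided by the location of their proteins. The ER lumen block is 176 FPKM with DMSO in C4-2B MDVR and 383 and 343 with APO and VER, and 156, 221 and 241 in CWR22Rv1.

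The ER lumen members were all higher in C4-2B MDVR with both inhibitors, and in part in CWR22Rv1. Their median log2 difference in C4-2B MDVR was 1.16 for APO and 1.11 for VER, with 4 of 4 higher, and 0.36 with APO (2 of 4 higher) and 0.65 with VER (3 of 4 higher) in CWR22Rv1. The share of all tested genes that were higher was 37.7% and 35.6% for APO and VER in C4-2B MDVR and 35.6% and 32.1% in CWR22Rv1, and the share lower was 35.4% and 34.9% in the first line and 39.2% and 32.3% in the second. The median of all tested genes was between -0.01 and 0.00 in each contrast. APO and VER of a line are set against the same DMSO library, so their differences are not independent of each other.

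DNAJB9 (chr7:108569568-108574850 on GRCh38), which assists the degradation of misfolded ER proteins, had 12.9, 74.1 and 56.0 FPKM with DMSO, APO and VER in C4-2B MDVR and 12.3, 60.5 and 45.4 in CWR22Rv1. All 4 treated libraries were above both DMSO libraries, and above that of their own line by 5.71-fold and 4.32-fold for APO and VER in C4-2B MDVR and by 4.90-fold and 3.68-fold in CWR22Rv1. On the log2 scale these were 2.51, 2.11, 2.29 and 1.88, and in CWR22Rv1 no other member was as high. In C4-2B MDVR the order of DNAJB9 and DNAJC6 turned with the pseudocount, since DNAJC6 was at 2.00 with APO and 2.34 with VER, at 2.53 and 2.90 with a pseudocount of 0.01 and at 0.71 and 0.90 with a pseudocount of 1, while DNAJB9 stayed between 2.04 and 2.52. The gene overlaps PNPLA8 and THAP5 on the other strand, and the sources used here do not say whether strand was used in counting.

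DNAJC10 (chr2:182716041-182794464), a disulfide reductase that opens misfolded proteins before their export from the ER, had 34.7, 106 and 108 FPKM with DMSO, APO and VER in C4-2B MDVR and 37.2, 61.8 and 74.6 in CWR22Rv1. The lines had nearly the same level under DMSO, and the treated libraries were 3.04-fold and 3.10-fold higher in the first and 1.66-fold and 2.00-fold higher in the second.

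DNAJB11 and DNAJC3 were past 1.2-fold in only a part of the contrasts. DNAJB11 (chr3:186567403-186585800), a soluble partner of BiP that binds unfolded clients, had 108, 177 and 147 FPKM in C4-2B MDVR and 78.2, 70.03 and 85.2 in CWR22Rv1. Its log2 differences were 0.72 and 0.45 with APO and VER in the first line and -0.16 and 0.12 in the second, where neither was past the threshold on the deposited scale and APO was at -0.31 with libraries scaled to the same sum without mitochondrial genes. DNAJC3 (chr13:95677139-95794989), a BiP co-chaperone also known as an inhibitor of the ER stress kinase PERK, had 21.0, 25.6 and 31.4 FPKM in C4-2B MDVR and 28.4, 28.4 and 35.2 in CWR22Rv1. It was 0.29 and 0.58 higher on the log2 scale in the first line, and 0.31 higher with VER in the second, where APO and DMSO had the same level. With libraries scaled to the same sum, its values with APO in C4-2B MDVR (0.14) and VER in CWR22Rv1 (0.24) were within 1.2-fold.

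**Figure D2:**
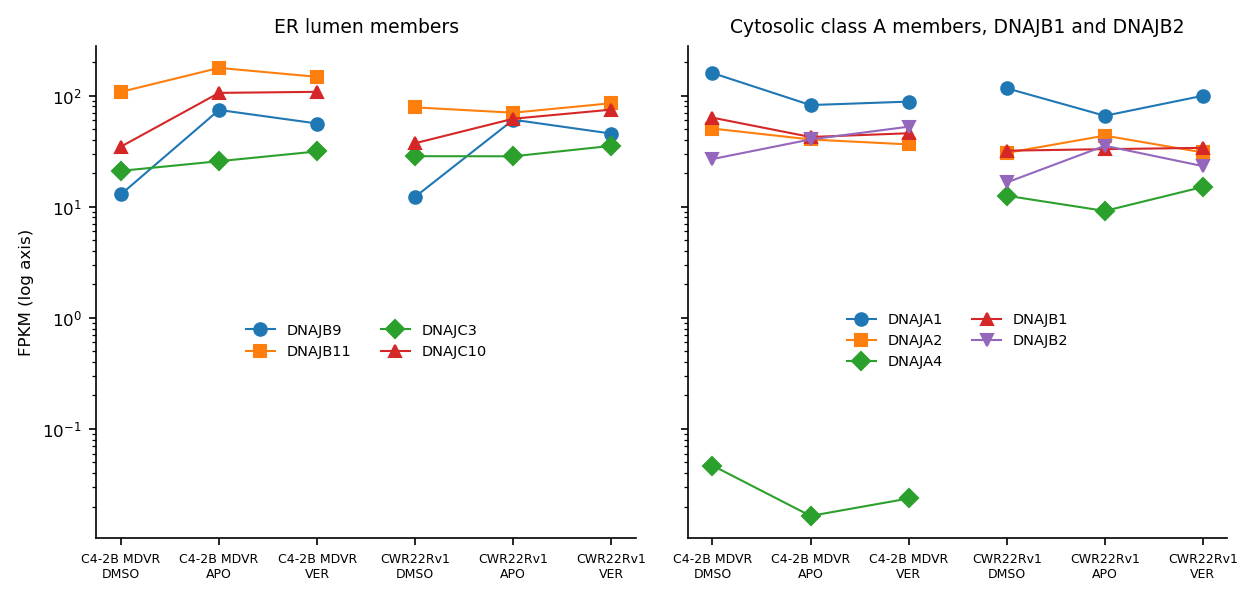
FPKM (log axis) in the 6 libraries of the 4 ER lumen members and of 5 cytosolic members, with lines joining the libraries of a cell line. DNAJB9 and DNAJC10 are above their DMSO level in all 4 treated libraries, DNAJA1 is below it in all 4, and DNAJA4 is below 0.1 FPKM in C4-2B MDVR and between 9.15 and 15.1 in CWR22Rv1.

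The ER lumen members and BiP did not keep one ratio. HSPA5 had 278, 2035 and 863 FPKM with DMSO, APO and VER in C4-2B MDVR and 437, 727 and 495 in CWR22Rv1. The summed FPKM of the 4 members was 63.5%, 18.8% and 39.7% of that of HSPA5 in the first line and 35.7%, 30.4% and 48.6% in the second. HSPA5 was thus further above DMSO than the sum of its co-chaperones in both C4-2B MDVR libraries and with APO in CWR22Rv1, and less so with VER in CWR22Rv1. DNAJB9 alone was further above DMSO than HSPA5 with VER in C4-2B MDVR (2.11 against 1.63 on the log2 scale). The same held in CWR22Rv1 with APO (2.29 against 0.73) and with VER (1.88 against 0.18). With APO in C4-2B MDVR the order was the reverse, with DNAJB9 at 2.51 and HSPA5 at 2.87. A list of 12 ER folding and degradation genes outside the family, HSPA5 among them, had 12 of 12 higher with either inhibitor in C4-2B MDVR, with medians of 0.99 and 1.03. In CWR22Rv1 5 of them were higher and 5 lower with APO (median 0.01), and 5 higher and 1 lower with VER (median 0.23). The CWR22Rv1 shares were 41.7% higher and 41.7% lower with APO, near the 35.6% and 39.2% of all tested genes. With VER they were 41.7% and 8.33%, against 32.1% and 32.3%. In C4-2B MDVR 37.7% of all tested genes were higher with APO and 35.6% with VER. HERPUD1, a membrane protein of ER-associated degradation, was higher in all 4 contrasts (1.89, 1.85, 1.0002 and 0.92), whereas HSP90B1, the HSP90 protein of the ER, was 0.78 and 1.02 higher in C4-2B MDVR and 1.07 lower with APO in CWR22Rv1, at 1162 FPKM with DMSO and 555 with APO.

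Among the ER membrane members DNAJC1 was higher in all 4 contrasts. DNAJC1 (chr10:21756537-22003769), whose J domain faces the lumen and whose other end binds ribosomes, had 24.3, 73.9 and 39.4 FPKM with DMSO, APO and VER in C4-2B MDVR and 22.2, 55.0 and 28.1 in CWR22Rv1. It was 3.04-fold and 2.47-fold higher with APO in the 2 lines, and 1.62-fold and 1.26-fold higher with VER. The DMSO levels were alike and the APO level was the highest in each line.

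DNAJC18 had 6.12, 6.78 and 2.79 FPKM in C4-2B MDVR and 1.01, 2.84 and 1.10 in CWR22Rv1. It was 1.10 lower with VER in the first line and 1.40 higher with APO in the second, and within 1.2-fold in the other contrasts. DNAJB12 and DNAJB14, whose J domains face the cytosol and which serve the degradation of membrane proteins, were 0.33 higher and 0.38 lower with VER in C4-2B MDVR, and 0.45 and 0.46 higher with VER in CWR22Rv1. The 6 ER membrane members had medians of 0.14 and 0.17 for APO and VER in C4-2B MDVR and of 0.10 and 0.39 in CWR22Rv1. The count higher was 1, 3, 2 and 4 of 6 in this order, and 2 were lower with VER in C4-2B MDVR and 0 in the other contrasts. Of all tested genes, 37.7%, 35.6%, 35.6% and 32.1% were higher and 35.4%, 34.9%, 39.2% and 32.3% lower in the same order.

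The cytosolic members as a group were not shifted in one direction. Of the 11 tested in C4-2B MDVR, 3 were higher and 4 lower with APO (median -0.14) and 2 higher and 5 lower with VER (median -0.20). Of the 12 tested in CWR22Rv1, 7 were higher and 2 lower with APO (median 0.38), and 2 higher and 1 lower with VER (median 0.04). The shares of all tested genes given above are the background of these counts. The median of the ER lumen members exceeded that of the cytosolic members by 1.30 (APO) and 1.31 (VER) in C4-2B MDVR and by 0.62 with VER in CWR22Rv1, and with APO in CWR22Rv1 the medians were nearly equal, with a difference of -0.01. Against all members outside the ER lumen that last difference was 0.24. With each library scaled to the same sum without mitochondrial genes, the ER lumen median with APO in CWR22Rv1 was 0.21 and the cytosolic one 0.22, both within 1.2-fold.

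**Figure D3:**
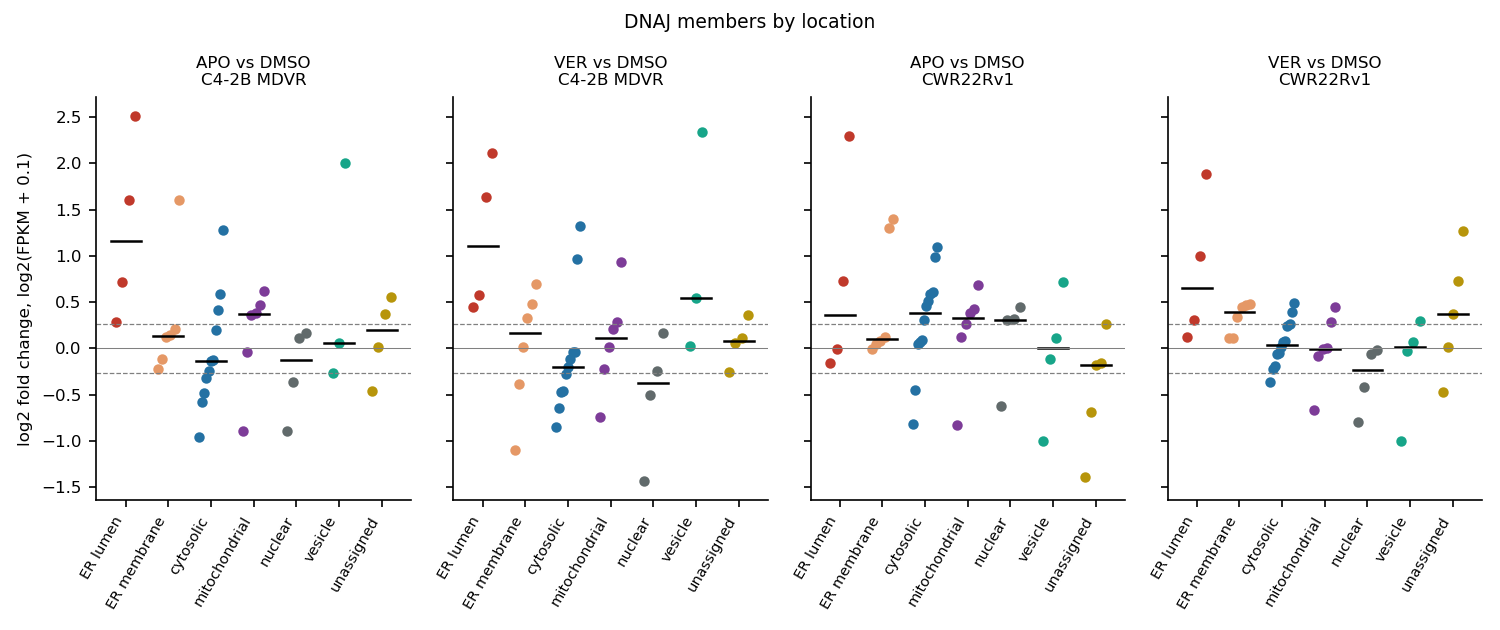
Log2 difference of each tested member from the DMSO library of its line, on the log2(FPKM + 0.1) scale, by location of the protein, with 1 point per member, a bar at each group's median and dashed lines at 1.2-fold. The ER lumen medians are 1.16, 1.11, 0.36 and 0.65 from left to right, and the cytosolic medians -0.14, -0.20, 0.38 and 0.04.

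DNAJA1 (chr9:33025211-33039907), the most abundant member under DMSO and a partner of cytosolic HSP70 anchored by a farnesyl group, had 159, 82.0 and 88.1 FPKM with DMSO, APO and VER in C4-2B MDVR and 116, 65.7 and 99.5 in CWR22Rv1. It was 0.96 and 0.85 lower on the log2 scale in the first line and 0.82 lower with APO in the second, with the VER library within the threshold at -0.22, or past it at -0.29 with libraries scaled to the same sum. In each line its DMSO library was the highest. The deposited tables also list DNAJA1 pseudogenes, each under 0.1 FPKM in every library, and reads shared with such copies could have been assigned to either.

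DNAJA2, the other abundant class A member of the cytosol, had 50.4, 40.2 and 36.3 FPKM in C4-2B MDVR and 30.5, 43.6 and 30.7 in CWR22Rv1. It was 0.33 lower with APO in the first line and 0.52 higher in the second. DNAJB1, the heat-inducible class B member, had 63.2, 42.3 and 45.8 FPKM in C4-2B MDVR, which was 0.58 and 0.46 lower than DMSO. In CWR22Rv1 its levels of 31.9, 32.9 and 33.8 FPKM lay within 1.2-fold of each other. DNAJA4, a cytosolic relative of DNAJA1, was under 0.1 FPKM in all C4-2B MDVR libraries and had 12.5, 9.15 and 15.1 FPKM in CWR22Rv1, where it was 0.45 lower with APO.

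DNAJB2 and DNAJC12 were the cytosolic members farthest above DMSO in all contrasts but VER in CWR22Rv1, where DNAJC24 (0.39) followed DNAJB2. DNAJB2, a ubiquitin-binding member known from neurons that directs clients to the proteasome, had 26.8, 40.3 and 52.4 FPKM in C4-2B MDVR and 16.5, 35.3 and 23.1 in CWR22Rv1. It was higher in all 4 contrasts, by 0.58 and 0.96 in the first line and 1.09 and 0.49 in the second, with VER the higher library in one line and APO in the other. DNAJC12, a co-chaperone of the aromatic amino acid hydroxylases, had 3.32, 8.22 and 8.42 FPKM in C4-2B MDVR and 4.12, 8.26 and 4.88 in CWR22Rv1. Its log2 differences were 1.28, 1.32 and 0.98, and 0.24 with VER in CWR22Rv1, just under the threshold.

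The log2 differences of the remaining cytosolic members were at most 0.64 in size. DNAJC7, which binds both HSP70 and HSP90, was between 57.4 and 69.3 FPKM in C4-2B MDVR and between 39.7 and 50.8 in CWR22Rv1. DNAJB6, a suppressor of protein aggregation, was between 37.8 and 44.98 FPKM in the first line and 33.7 and 35.9 in the second, within 1.2-fold of DMSO in each contrast. DNAJC2, a ribosome-bound member that acts on nascent chains, had 23.0, 16.4 and 14.7 FPKM in C4-2B MDVR and 18.4, 28.0 and 16.1 in CWR22Rv1. Its log2 differences were -0.48 for APO and -0.64 for VER in the first line and 0.61 and -0.19 in the second.

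Heat shock genes outside the family were mostly lower than DMSO in the libraries in which DNAJA1 was. Of a list of 10 such genes, 2 were higher and 7 lower with APO in C4-2B MDVR (median -0.53), 0 higher and 8 lower with VER (median -0.75), 0 higher and 7 lower with APO in CWR22Rv1 (median -0.46), and 3 higher and 0 lower with VER (median -0.10). HSPA8, the constitutive cytosolic HSP70, had 1332, 1399 and 719 FPKM in C4-2B MDVR and 713, 545 and 1210 in CWR22Rv1. The summed FPKM of the cytosolic members was 32.8%, 24.8% and 47.7% of that of HSPA8, HSPA1A and HSPA1B together in the first line and 42.4%, 59.4% and 24.7% in the second. HSPA1A and HSPA1B are nearly identical, so the split of reads between them, and the count of each in these lists, is uncertain. A list of 23 genes of the HSP70 family and its nucleotide exchange factors had medians between -0.12 and 0.02, with 8, 8, 9 and 8 members higher and 9, 8, 8 and 4 lower for APO and VER in C4-2B MDVR and in CWR22Rv1. The shares higher in this list, 34.8%, 34.8%, 39.1% and 34.8%, were near those of all tested genes, 37.7%, 35.6%, 35.6% and 32.1%. For both lists, the shares of all tested genes that were lower are 35.4%, 34.9%, 39.2% and 32.3%.

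Of the mitochondrial members, DNAJC11 was lower and DNAJC19 higher in all 4 contrasts. DNAJC11 (chr1:6634168-6701924), which takes part in the shaping of the inner membrane, had 37.8, 20.4 and 22.5 FPKM with DMSO, APO and VER in C4-2B MDVR and 25.1, 14.1 and 15.8 in CWR22Rv1. It was 0.89 and 0.75 lower in the first line and 0.83 and 0.66 lower in the second, and every treated library was under both DMSO libraries. DNAJC19 (chr3:180983709-180989774), a part of the import motor of the inner membrane, had 38.3, 49.2 and 46.7 FPKM in C4-2B MDVR and 33.6, 45.3 and 46.0 in CWR22Rv1. Its differences of 0.36, 0.29, 0.43 and 0.45 were small, and that with APO in C4-2B MDVR fell within 1.2-fold when libraries were scaled to the same sum. Its pseudogene DNAJC19P5 was listed at up to 1.26 FPKM, and the share of reads assigned to such copies is not known.

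DNAJA3 had 63.1, 82.4 and 73.2 FPKM in C4-2B MDVR and 47.0, 75.4 and 47.0 in CWR22Rv1, so that it was higher with APO in both lines, by 0.38 and 0.68. DNAJC4 was 0.47 and 0.93 higher for APO and VER in C4-2B MDVR and within 1.2-fold of DMSO in CWR22Rv1. DNAJC30, an intronless gene whose product is known to support respiratory complexes, had 22.7, 22.2 and 19.5 FPKM in C4-2B MDVR and 13.0, 17.01 and 12.3 in CWR22Rv1. The 6 tested mitochondrial members had medians of 0.37, 0.11, 0.32 and -0.01 in the contrasts APO and VER in C4-2B MDVR and APO and VER in CWR22Rv1.

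DNAJC9 was the nuclear member farthest below DMSO. DNAJC9 (chr10:73183362-73248862), a histone chaperone that brings HSP70 to histones H3 and H4, had 25.0, 13.5 and 9.18 FPKM in C4-2B MDVR and 22.7, 14.8 and 13.0 in CWR22Rv1. Its differences were -0.89, -1.44, -0.62 and -0.80, with the VER library the lowest of each line. The gene overlaps MRPS16 on its own strand, so a part of its fragments could belong to that gene. DNAJC8 and DNAJC17, both linked to pre-mRNA splicing, and DNAJC21, a factor of ribosome assembly, were not lower in all contrasts. DNAJC8 was 0.51 lower with VER in C4-2B MDVR and 0.31 higher with APO in CWR22Rv1, DNAJC17 was 0.36 lower with APO in C4-2B MDVR, 0.45 higher with APO in CWR22Rv1 and 0.42 lower with VER there, and DNAJC21 was past 1.2-fold with APO in CWR22Rv1 alone, at 0.31. The medians of the 4 nuclear members were -0.12, -0.38, 0.31 and -0.24.

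Of the vesicle members, DNAJC6, DNAJC5 and DNAJC13 were above 1 FPKM on average. DNAJC6, known as auxilin and needed to strip clathrin from vesicles, had 0.143, 0.875 and 1.13 FPKM in C4-2B MDVR and 3.04, 5.05 and 2.96 in CWR22Rv1. It was 2.00 and 2.34 higher with APO and VER in the first line and 0.71 higher with APO in the second, where the VER and DMSO levels were alike. The C4-2B MDVR differences rest on a DMSO level near the pseudocount of 0.1, in the library with the lowest depth on the rough scale given above. These differences ran from 0.71 to 2.53 (APO) and from 0.90 to 2.90 (VER) with the pseudocount. DNAJC5, the cysteine string protein of secretory vesicles, had 31.4, 32.6 and 46.0 FPKM in C4-2B MDVR and 22.2, 20.5 and 27.3 in CWR22Rv1, higher with VER by 0.55 and 0.30.

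Across the family, 15 of the 38 members tested in C4-2B MDVR were higher and 9 lower with APO, and 14 higher and 10 lower with VER. In CWR22Rv1 18 of 41 were higher and 7 lower with APO, and 15 higher and 6 lower with VER. The shares higher, 39.5%, 36.8%, 43.9% and 36.6%, were close to those of all tested genes given above, and the shares lower, 23.7%, 26.3%, 17.1% and 14.6%, were below them. Among all genes whose mean was 1 FPKM or more, the shares lower were 33.8%, 33.4%, 36.6% and 30.6%. DNAJB13 and DNAJC5G passed the filter in CWR22Rv1 only, through 2 libraries and 1 library above 0.1 FPKM. Without them, 18 of 39 members were higher and 5 lower with APO in this line, and 14 higher and 5 lower with VER. The family medians were 0.14, 0.02, 0.13 and 0.08, and 14, 14, 16 and 20 of the tested members were within 1.2-fold of DMSO.

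By class, the 3 tested class A members had medians of -0.33 and -0.47 for APO and VER in C4-2B MDVR, and the 4 in CWR22Rv1 had medians of 0.03 and 0.01. The class B medians were 0.20, -0.04, 0.08 and 0.29 and the class C medians 0.13, 0.04, 0.26 and 0.07. Class B and class C each held members of the ER lumen and of the cytosol, which did not move alike. Within class B, for example, DNAJB9 was 2.51 higher and DNAJB1 0.58 lower with APO in C4-2B MDVR.

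In all, 7 of the 38 members tested in both lines were past 1.2-fold the same way in all 4 contrasts, 5 of them higher (DNAJB2, DNAJB9, DNAJC1, DNAJC10 and DNAJC19) and 2 lower (DNAJC9 and DNAJC11). Among the 18059 genes tested in both lines, 9.59% were higher and 11.3% lower in all 4. Neighbours on the chromosome were few, as the 45 members lie on 19 chromosomes and only 2 adjacent pairs are under 1 Mb apart. DNAJC25 and its read-through transcript DNAJC25-GNG10 share exons, so their values of 9.62 and 5.46 FPKM with DMSO in C4-2B MDVR are not separate measurements. DNAJB12 and DNAJC9 are 828132 bp apart on chromosome 10 and were past 1.2-fold with VER in opposite directions.

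The lines share no control, so each inhibitor's values can be compared between them. With APO, 9 members were higher and 4 lower in both lines, and 3 (DNAJA2, DNAJC2 and DNAJC17) were lower in C4-2B MDVR and higher in CWR22Rv1. The same direction was thus seen in 81.2% of the 16 members past 1.2-fold in both, against 76.5% of the 10120 genes past it in both. With VER, 10 members were higher and 2 lower in both lines, and DNAJB14 was lower in C4-2B MDVR and higher in CWR22Rv1. This gave 92.3% of 13 members, against 75.7% of 8593 genes. Mitochondrial genes held 10.4% of FPKM in the CWR22Rv1 APO library and 25.7% in its DMSO control, and 7 members were lower with APO in this line as deposited, 6 with libraries scaled to the same sum and 11 with libraries scaled to the same sum without those genes. The 7 include DNAJB13 and DNAJC5G, both near the floor. The median of genes above 1 FPKM moved too, from 0.01 as deposited to 0.12 and -0.15 in the same order. The shares of all tested genes lower with these scalings were not computed. The part of the mitochondrial share in the single values was not tested.

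**Figure D4:**
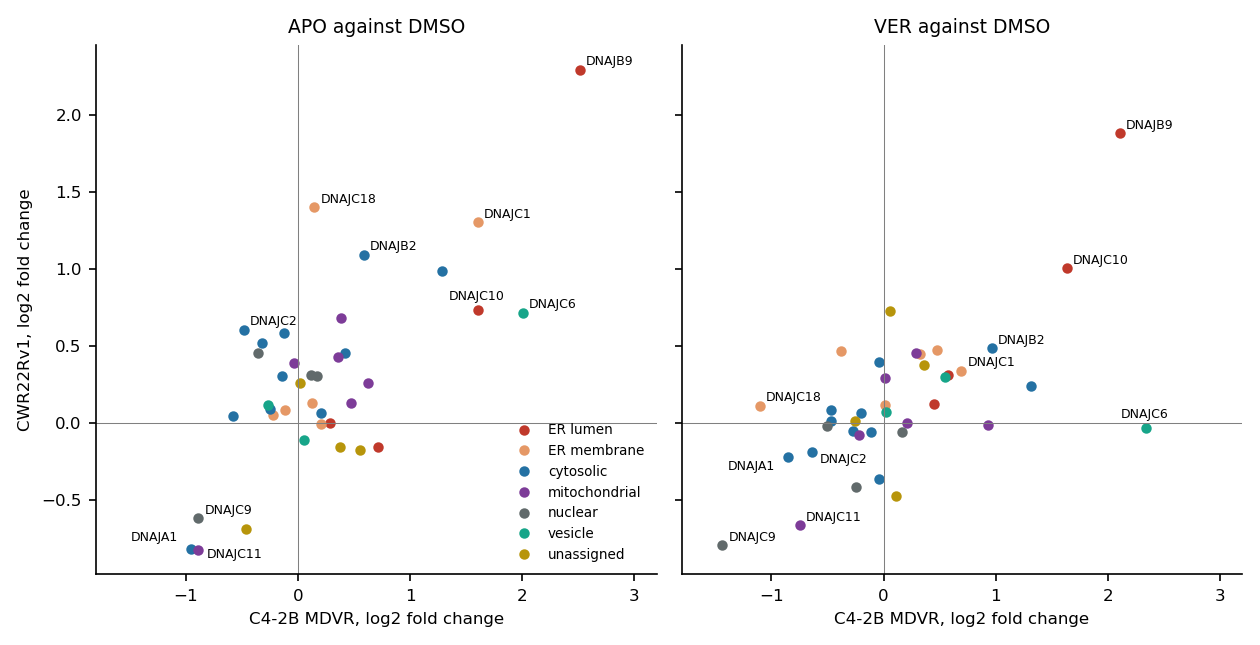
Log2 difference from DMSO in C4-2B MDVR (horizontal) and in CWR22Rv1 (vertical) for the 38 members tested in both lines, with APO on the left and VER on the right, coloured by location. DNAJB9 lies at 2.51 and 2.29 for APO and 2.11 and 1.88 for VER, and DNAJC9 and DNAJC11 are below 0 on both axes in both panels.

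The lines also differed in the family under DMSO. In C4-2B MDVR 17 of 41 tested members were higher and 11 lower than in CWR22Rv1, with a median of 0.14, where 39.2% of all tested genes were higher and 43.2% lower and their median was -0.05. DNAJB13 and DNAJC5G were above 0.1 FPKM in the CWR22Rv1 library alone, so they could only count as lower. Of the 39 members with a mean of at least 1 FPKM, which leave them out, 17 were higher and 9 lower. Among all genes with such a mean, 41.2% were higher and 36.6% lower. The enzalutamide in the medium of C4-2B MDVR cannot be told apart from the line. DNAJA4 had 0.0468 FPKM against 12.5, and its log2 difference of -6.43 ran from -7.79 to -3.69 with the pseudocount. DNAJC6 had 0.143 FPKM against 3.04. DNAJC22, a membrane protein of little known function, had 22.5 FPKM against 55.1, and was 0.47 and 0.69 lower with APO in the first and the second line. Of the members higher in C4-2B MDVR, DNAJC18 had 6.12 against 1.01 FPKM and was 2.48 higher on the log2 scale (1.82 to 2.58 with the pseudocount), DNAJB1 was 0.98 higher and DNAJC30 0.80 higher.

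The cytosolic members were higher in C4-2B MDVR than in CWR22Rv1 under DMSO, with 8 of 12 tested higher, 2 lower and a median of 0.43. The ER lumen members were not, with DNAJB11 0.46 higher, DNAJC3 0.44 lower, and DNAJB9 and DNAJC10 within 1.2-fold (0.07 and -0.10). The members of the ER lumen that were farthest above DMSO with the inhibitors thus started from like levels in the lines.

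**Figure D5:**
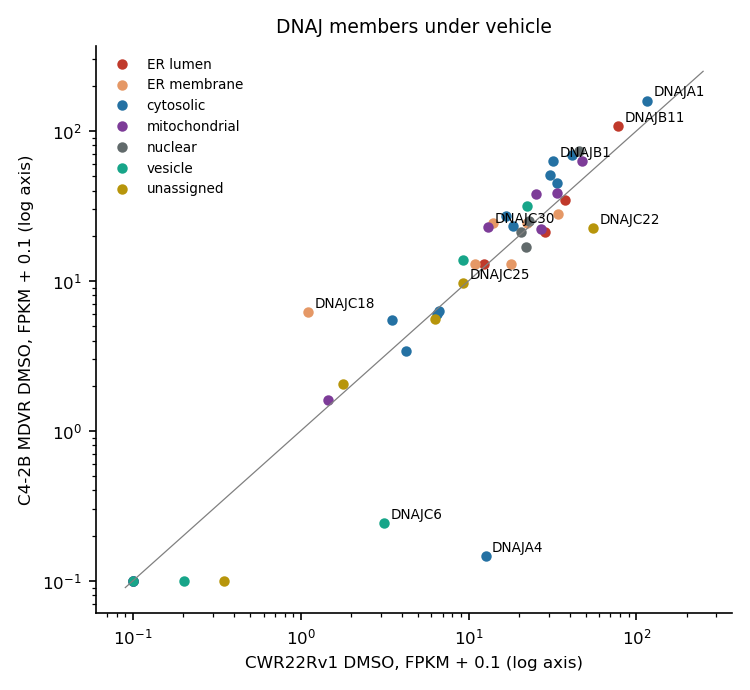
FPKM + 0.1 of each member under DMSO in CWR22Rv1 (horizontal, log axis) and C4-2B MDVR (vertical, log axis), coloured by location, with the line of equal values. DNAJA4, DNAJC6 and DNAJC22 lie below the line and DNAJC18 and DNAJB1 above it, while most members lie near it.

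Some J proteins whose symbols do not begin with DNAJ were looked at for comparison. SEC63, the J protein of the ER import channel, had 26.6, 50.1 and 41.1 FPKM with DMSO, APO and VER in C4-2B MDVR and 32.2, 46.1 and 44.2 in CWR22Rv1. It was higher in all 4 contrasts, by 0.91, 0.63, 0.51 and 0.46. GAK, the widely expressed relative of DNAJC6, was 0.32 higher with APO in C4-2B MDVR and 0.33 and 0.39 lower with APO and VER in CWR22Rv1. HSCB, which serves the assembly of iron-sulfur clusters in mitochondria, was past 1.2-fold with APO in CWR22Rv1 alone, where it was 0.69 higher.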

How the data were processed

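The authors aligned the reads with HISAT, ran a Cufflinks pipeline and deposited 1 table of FPKM values per library, normalized by Cuffnorm. The submitters' processing notes name these tools and GRCh38, and their versions and the annotation release are not given in the sources used here. Read totals are not in the tables, so depth was compared between libraries only through values of 0.001 to 0.05 FPKM, and intervals for counting error were not computed. Ensembl identifiers were matched to GENCODE 29, which gave symbols and coordinates for 57047 of 60658.

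A gene was tested where its FPKM was above 0.1 in at least 1 library compared, and a pseudocount of 0.1 was added, which understates the differences of low genes. Members named with all values were the 4 ER lumen members, cytosolic class A members and DNAJB1, those past 1.2-fold the same way in all 4 contrasts, and, with a mean of at least 1 FPKM, those past 2-fold in any contrast and the 3 highest and 3 lowest between the lines under DMSO. Others were named to describe a group. A gene of the comparison lists is not reported here. The members and lists were chosen with earlier results of these data known.

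The alternatives were pseudocounts of 0.01 and 1, no filter and stricter filters, 3 rescalings, thresholds of 1.5-fold and 2-fold, and all members outside the ER lumen in place of the cytosolic ones. The code was checked on a copy of a library with set fold changes put in. That copy held no noise, so the check does not bear on calls between single libraries. Computations ran in Python 3.11.15 with numpy 2.4.6, pandas 2.3.3 and scipy 1.17.1, and plots were drawn with matplotlib 3.10.9.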

Additional observations from a re-analysis of the deposited data

Results flagged for a closer look

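With APO, 3 members were past 1.2-fold in opposite directions in the lines, lower in C4-2B MDVR and higher in CWR22Rv1. The log2 difference of C4-2B MDVR minus that of CWR22Rv1 was -0.841 for DNAJA2, -0.81 for DNAJC17 and -1.09 for DNAJC2. With VER, DNAJB14 was the member of this kind, at -0.845. With 1 library per condition these differences between the lines were not tested.

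Transcripts beside the members, which are not protein-coding and entered no comparison of the report, were also past 1.2-fold above DMSO in some contrasts. DNAJC3-DT, a divergent transcript of DNAJC3, had 1.69, 3.60 and 3.25 FPKM with DMSO, APO and VER in C4-2B MDVR and 2.59, 4.70 and 3.77 in CWR22Rv1. It was 1.05 and 0.902 higher on the log2 scale in the first line and 0.836 and 0.525 higher in the second. DNAJC27-AS1, antisense to DNAJC27, was 0.843 higher with APO in CWR22Rv1, and it was 0.68 and 1.49 lower with VER in C4-2B MDVR and in CWR22Rv1. The more abundant of the genes listed as DNAJC9-AS1, antisense to DNAJC9, was 0.472 higher with APO in C4-2B MDVR and 0.675 and 0.358 higher with APO and VER in CWR22Rv1, whereas DNAJC9 was lower in each. The use of strand in counting is not given in the sources used here, so reads of a member and its antisense transcript may not have been separated.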

How the results depend on the processing

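Counts of members were taken to have moved when they changed by over 1.5 times, and medians or members when they crossed 1.2-fold (1.5-fold and 2-fold for those thresholds). No result changed direction while past the threshold, and all 36 alternative values of the ER lumen minus cytosolic difference kept their side of it. Of the alternative values, 87 of 110 counts, 266 of 288 group medians and 796 of 879 values of single members did not move, and 77 and 6 single values crossed the threshold downward and upward. The median of genes above 1 FPKM was 0.01, 0.01 and 0.10 as deposited with APO in C4-2B MDVR, with APO in CWR22Rv1 and between the DMSO libraries. It was -0.14, 0.12 and 0.16 with the same FPKM sum, -0.15, -0.15 and -0.02 with mitochondrial genes left out of that sum, and 0.00 in the last of these with median ratio scaling. With the same sum, 14 members were lower with APO in C4-2B MDVR and 7 between the DMSO libraries. The medians with APO in C4-2B MDVR were then -0.29 for cytosolic, 0.22 for mitochondrial and -0.27 for nuclear members, and that of nuclear members with VER in CWR22Rv1 was -0.30. The shares of all tested genes that were lower with either sum were not computed. With mitochondrial genes left out, 14 and 11 members were lower with APO in C4-2B MDVR and CWR22Rv1. In C4-2B MDVR with APO the cytosolic, mitochondrial and nuclear medians were -0.30, 0.21 and -0.29, and in CWR22Rv1 the ER lumen, cytosolic, mitochondrial and nuclear medians were 0.21, 0.22, 0.18 and 0.16 with APO and the nuclear median -0.30 with VER. The class C median with APO in CWR22Rv1 was 0.28 with a pseudocount of 0.01 and with either stricter filter (FPKM above 0.1 in all libraries or above 1 in at least 1), and 0.39 with the same sum. The class B median with VER in CWR22Rv1 was 0.10 with no filter, 0.12 with either stricter filter, and 0.22 with either sum. Without a filter the cytosolic median with APO in CWR22Rv1 was 0.20. At 1.5-fold, 7 members were higher and 3 lower with APO and 7 and 5 with VER in C4-2B MDVR, 10 higher with APO and 4 higher and 3 lower with VER in CWR22Rv1, and 10 higher and 5 lower between the DMSO libraries. At 2-fold these counts were 5 and 0, 4 and 2, 4 and 2, 3 and 1, and 1 and 5. The shares of all tested genes past 1.5-fold and 2-fold were not computed, so these counts have no background. Some rest on members near the floor. DNAJB13 and DNAJC5G were past 2-fold lower with APO in CWR22Rv1 (-1.39 and -1.01) and in C4-2B MDVR against CWR22Rv1 under DMSO. With VER in CWR22Rv1 DNAJC5G was lower (-1.01) and DNAJB13 higher (1.27). Leaving out DNAJC25-GNG10, an alternative chosen after seeing the data, moved no count by over 1.5 times. For the other changes the cause was not tested. No paired analysis was possible because each condition has 1 library and no result comes from a test, and no library could be left out for the same reason. Read totals were not used here, so depth limits mainly the members near 0.1 FPKM, such as DNAJA4 and DNAJC6 in C4-2B MDVR.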
